A study of Mus musculus with 16 samples.

Results

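RNA bound to astrocyte ribosomes was set against RNA of the whole striatum in the 4 control mice of the study (Y481, Y482, Y483 and Y485). Each mouse gave 1 immunoprecipitated library (IP) and 1 input library from the cleared lysate of the same tissue, so the comparison held 8 of the 16 libraries and was paired by mouse. Genes entered when they reached at least 10 recovered reads in at least 4 of these 8 libraries, which held for 6975 of the 13277 listed genes (52.5%). The rule used the number of reads only, in whichever fraction they lay.

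All mice were adult offspring of RiboTag mice on a B6 background and Aldh1l1-Cre/ERT2 mice, an FVB line backcrossed to C57BL/6N. Cre acts under the promoter of Aldh1l1, a folate enzyme gene used as a marker of astrocytes, and the RiboTag allele then puts a haemagglutinin tag on a protein of the large ribosomal subunit. The 4 control mice had received an adeno-associated virus for a control protein, which the labels do not name. The other 4 mice (Y486, Y487, Y489 and Y490) had received a virus for hPMCA2w/b, a human calcium pump of the plasma membrane, and are called PMCA mice below. Whole striata were taken, so every control library comes from tissue that carried the tag, Cre and a virus, and no precipitation from untagged tissue was analysed here.

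Astrocytes are glial cells that tile the brain, take up glutamate and GABA after synaptic release, buffer potassium, supply glutamine and lipids to neurons, and contact blood vessels with their endfeet. They derive from radial glia and keep many regulators of that lineage. The striatum consists mainly of GABAergic projection neurons with dopamine receptors, mixed with interneurons, oligodendrocytes, microglia and vascular cells. In bulk samples such as these, fewer cells of a type and less RNA per cell cannot be told apart, and an IP library in addition reports ribosome-bound RNA where input reports total RNA.

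Levels are log2 CPM, the deposited logarithm of counts scaled to library size, in which 0 reads stand at -0.66. A difference is the mean IP minus the mean input level on that log2 scale, with its standard error (SE) from limma with the mouse as a block, and a gene was called at a Benjamini-Hochberg adjusted p under 0.05. Where 4 values are listed they follow the order Y481, Y482, Y483, Y485, and errors after ± are SD with n = 4 mice. Values are not corrected for gene length, so they are compared between fractions and not between genes. Nothing in the labels separates cages, litters or days, and the p-values measure the spread between these mice.

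Over the listed genes the control IP libraries held 407705 to 640534 reads and the input libraries 198462 to 375715, so that input is the less precise side of most comparisons. The input library of Y481 was the shallowest of the 8. Members of the rule held 92.3% to 94.5% of these reads. Libraries of 1 fraction correlated over genes with r of 0.929 to 0.954 within IP and 0.877 to 0.939 within input, and with r of 0.369 to 0.441 between fractions. These are correlations across genes, which are not independent replicates. At the edge of the rule, Pygl entered with 47 IP and 2 input reads, Sgpp2 with 1 and 50, and Sox10 with 2 and 49. Just outside lay Mapkapk2 with 122 and 19 reads, Mief1 with 104 and 33, and Gpr83 with 14 and 116.

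Genes differed between the fractions in both directions. Of the 6975 genes 3770 were called (54.1%), 2042 of them higher in IP (29.3%) and 1728 lower (24.8%). The shares of 29.3% and 24.8% are the background for the count of calls in each list of genes below. A difference of at least 2-fold was shown by 1687 of the higher and 1383 of the lower genes, and one of at least 16-fold by 151 and 89. The median difference was 0.10, with quartiles at -0.75 and 1.05. In single mice that median was 0.23, 0.14, 0.02 and 0.01. Among the genes called higher 1959 were higher in each of the 4 mice, and among those called lower 1657 were lower in each of them. Every IP library lay above every input library for 1907 genes and below it for 1601.

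**Figure D1:**
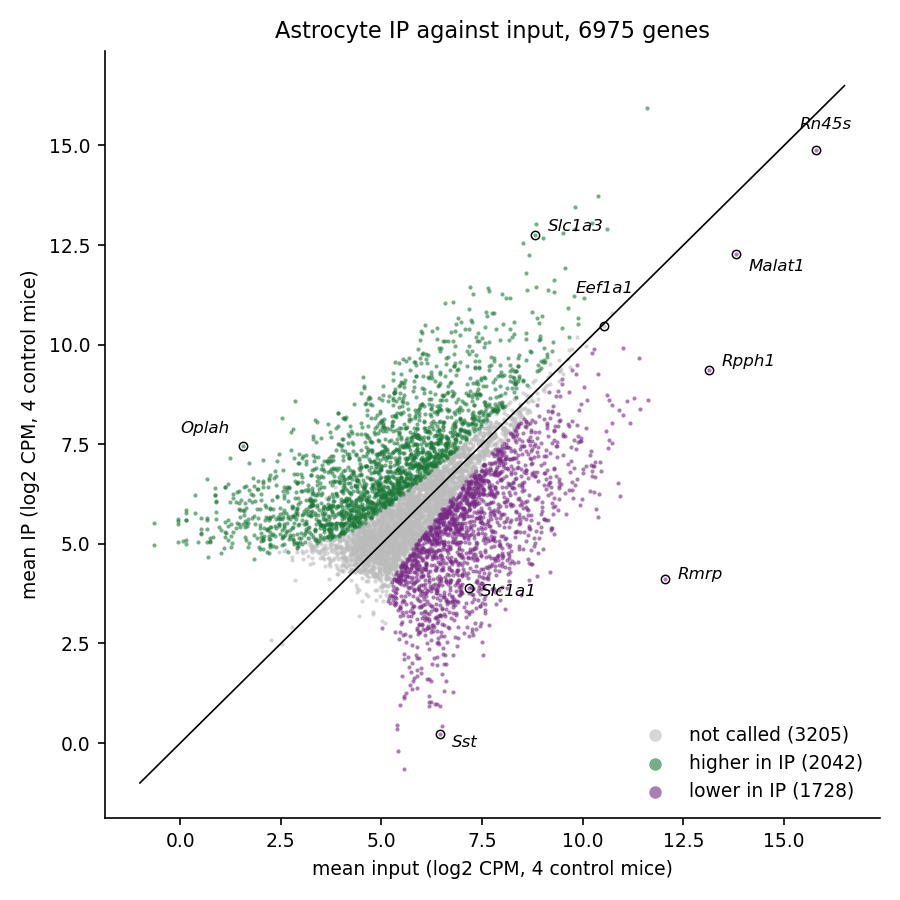
Mean IP level (vertical axis, log2 CPM) against mean input level (horizontal axis, log2 CPM) of 6975 genes over 4 control mice, 1 point per gene, with the line of equal levels. The 2042 genes called higher in IP form the cloud above the line and the 1728 called lower the cloud below it, with Rmrp the gene farthest below among the labelled ones.

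The route by which a gene met the rule was tied to its call. Of 644 genes that reached 10 reads only in IP libraries 563 were called higher, and all 202 genes that reached 10 reads only in input libraries were called lower. Genes that entered through 1 fraction were chosen for a high level there, so their calls support no statement on direction. Any member named below with fewer than 10 reads in total in a fraction entered in this way. Among the 3025 genes with 10 reads in all 8 libraries 694 were higher, 971 lower and 1360 not called. This filter is not neutral either, because 10 reads are a higher level in the shallower input libraries. In Y481, 1 read was 4.46 CPM in input and 1.69 CPM in IP. The filter thus favours genes high in input, and the excess of lower calls supports no statement on direction. The share of calls rose with depth, from 35.2% in the lowest quartile of genes by mean reads to 75.1% in the highest, while the median half-width of the 95% interval of the difference fell from 1.03 to 0.43. Counts of calls therefore follow depth, and a gene that was not called may still differ. The interval lay within -0.5 to 0.5 for 91 genes.

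The precipitate carried the RNA of the labelled cell type. All 38 astrocyte markers were members, all 38 were higher in IP, and their median difference was 3.81 against 0.10 over all members. With 10 reads required in all 8 libraries 21 were called. The summed level of the list was 138704 to 145891 CPM in IP and 9195 to 9668 CPM in input libraries. Aldh1l1, the gene whose promoter drives Cre, stood at 8.73, 8.83, 8.78 and 8.83 log2 CPM in IP and at 3.26, 5.10, 4.72 and 4.93 in input. The IP values lay close together and above every input value (difference 4.29, SE 0.28, adjusted p = 2.97e-11). Gfap, the intermediate filament of astrocytes, stood at 11.65, 11.29, 11.48 and 10.72 in IP and at 7.77, 7.40, 7.33 and 6.58 in input. Its lowest value in both fractions came from Y485, and its difference of 4.02 (SE 0.13) was alike in all 4 mice.

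Markers of neurons and oligodendrocytes were lower in IP. Of 22 markers of striatal projection neurons and 20 of neurons in general all were called lower, with medians of -3.17 and -3.50. Among the general neuronal markers 11 were called with 10 reads required in all 8 libraries. Drd1a, the D1 dopamine receptor of the direct pathway, stood at 4.50, 5.19, 3.76 and 4.58 log2 CPM in IP and at 8.41, 8.83, 8.70 and 8.92 in input (difference -4.21, SE 0.26). Drd2, the D2 receptor of the indirect pathway, gave a difference of -3.09 (SE 0.30). The smallest difference among the neuronal markers was that of Map2, a dendritic cytoskeleton gene, at -0.36 (SE 0.14, adjusted p = 0.0378), and its call was lost when Y481, Y482 or Y483 was left out, without robust moderation and with scaling by the median of ratios. Of 13 oligodendrocyte markers 12 were lower (4 with 10 reads required in all 8 libraries), with a median of -3.72. The exception was Cnp, an enzyme of myelinating cells, at 7.70 ± 0.27 in IP and 7.81 ± 0.72 in input (difference -0.12, SE 0.22, adjusted p = 0.688), whose sign turned without Y483 or without Y485. Both interneuron markers that met the rule, the neuropeptide genes Sst and Npy, were lower, with 3 and 5 IP reads against 104 and 51 input reads. They entered the rule through their input reads alone, so their calls support no statement on direction. Of 4 markers of oligodendrocyte precursors 2 were lower and 2 not called. The 2 lower ones, Sox10 and Gpr17, also entered through input alone, so neither could be called with 10 reads required in all 8 libraries. Gpr17, a receptor of maturing oligodendrocytes, had 6 IP and 63 input reads, 16.3-fold lower (95% counting interval 7.07 to 46.0), whereas the proteoglycan Vcan was not called (0.57, SE 0.30, adjusted p = 0.113).

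The microglial markers that met the rule differed less. Of 9 members 8 were called lower (2 with 10 reads required in all 8 libraries), with a median of -1.40. When 1 mouse was left out 6 to 7 were called. C1qb, a complement subunit made by microglia, stood at 4.87, 3.26, 3.97 and 3.76 log2 CPM in IP and at 7.29, 6.17, 5.91 and 5.78 in input (difference -2.32, SE 0.39). Y481 was highest in both fractions, and the groups did not overlap. The microglial list summed to 181 to 444 CPM in IP and 723 to 1195 CPM in input. Its other 8 markers fell under the rule, all with fewer IP than input reads. Tmem119 had 1 IP and 27 input reads, and C1qc had 13 and 71. The median of the members therefore need not hold for the whole list. Few vascular and ependymal markers met the rule. Slco1c1, a thyroid hormone transporter of brain endothelium that astrocytes also express, was higher in IP (difference 3.05, SE 0.28), as were the glucose transporter Slc2a1 (1.48, SE 0.29) and Pdgfrb (3.12, SE 0.40). The single ependymal member, the ciliogenesis factor Foxj1, was higher with 66 IP and 15 input reads (adjusted p = 0.034), a call that was lost under plain read totals and without Y482, Y483 or Y485. The remaining 12 endothelial and 10 mural or fibroblast markers with values in the files fell under the rule. Most of these had fewer IP than input reads over the 4 mice. The endothelial marker Flt1 had 16 IP and 43 input reads, and the mural marker Vtn had 3 and 40. The endothelial cadherin Cdh5 had 0 and 12 reads, and the fibroblast proteoglycan Dcn had 0 and 12. Others had more IP than input reads. Among them were the pericyte peptidase Anpep with 10 and 1, the collagen gene Col1a2 with 12 and 5, and the contractile protein gene Tagln with 11 and 6. The endothelial receptors Kdr (12 and 8) and Tek (4 and 1) were further ones. These reads are not scaled to library size, and IP was the deeper fraction, so an excess as small as that of Kdr shows no higher level.

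**Figure D2:**
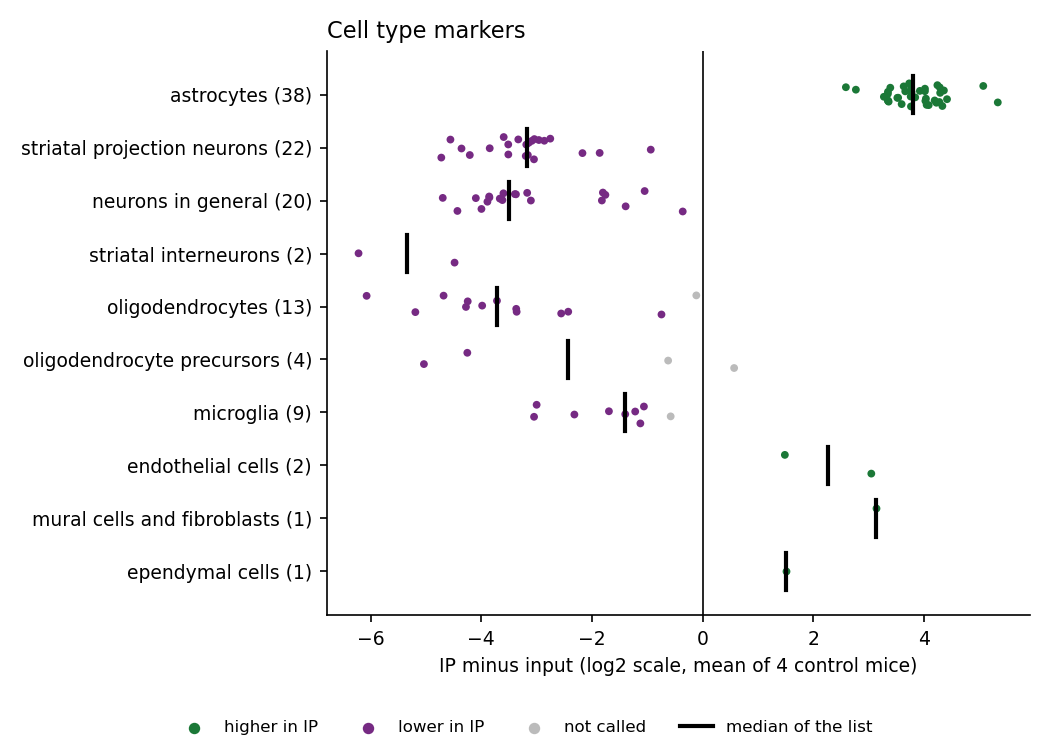
Difference of IP and input (horizontal axis, log2 scale, mean of 4 control mice) for each cell type marker that met the rule, 1 point per gene, by marker list with the number of members in brackets and a bar at the list's median. All 38 astrocyte markers lie to the right of 0, and the neuronal, oligodendrocyte and microglial lists have their medians to the left.

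Members of 1 gene family often lay in opposite fractions. The beta subunits of the sodium pump, which carry it to the membrane, were one case. Atp1b2 was higher in IP (3.27, SE 0.13), Atp1b1 was lower (-1.64, SE 0.14), and Atp1b3 was not called (0.13, SE 0.27, adjusted p = 0.718), with a sign that turned when libraries were scaled to their plain read totals in place of the deposited effective sizes.

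Transporters that clear transmitter followed the cell types that use them. Slc1a3, the glutamate transporter GLAST, stood at 12.75, 12.73, 12.83 and 12.66 log2 CPM in IP and at 8.90, 8.39, 8.99 and 8.99 in input (difference 3.92, SE 0.11). Slc1a1, the neuronal glutamate transporter EAAC1, stood at 3.18, 3.56, 4.61 and 4.23 in IP and at 6.62, 7.29, 7.23 and 7.51 in input (difference -3.27, SE 0.34). Neither gene overlapped between fractions. Slc1a2, the main astrocytic transporter GLT-1, differed by 4.33 (SE 0.07). The GABA transporter Slc6a11 (GAT-3) was also higher in IP, by 3.76 (SE 0.16). Glul, which turns the recovered glutamate into glutamine, stood at 13.73 ± 0.11 in IP and 10.37 ± 0.20 in input (difference 3.36, SE 0.10).

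Some receptor families were divided between the fractions. Among the GluN2 subunits of NMDA receptors, Grin2c stood at 8.74, 8.45, 8.30 and 8.62 log2 CPM in IP and at 5.35, 4.12, 4.72 and 4.29 in input. Grin2b stood at 6.47, 6.03, 6.37 and 6.67 in IP and at 9.21, 9.00, 9.06 and 9.05 in input. The order of the fractions was reversed between these subunits in every mouse, with differences of 3.91 (SE 0.25) for Grin2c, -2.70 (SE 0.18) for Grin2b and -3.33 (SE 0.44) for Grin2a. The metabotropic glutamate receptor Grm3 was higher in IP (2.39, SE 0.15) and Grm5 lower (-3.22, SE 0.17). Other glutamate receptor families lay on 1 side. The AMPA receptor subunits Gria1 (-1.44, SE 0.15), Gria2 (-2.28, SE 0.16), Gria3 (-2.15, SE 0.23) and Gria4 (-2.24, SE 0.31) and the kainate receptor subunits Grik2 (-0.97, SE 0.22) and Grik5 (-1.05, SE 0.21) were all lower. Gabrg1, a gamma subunit of GABA-A receptors, was higher (2.82, SE 0.26).

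Calcium release and trophic signalling genes showed the same division. Itpr2, the IP3 receptor that releases calcium from astrocyte stores, stood at 8.06, 7.59, 7.73 and 7.80 log2 CPM in IP and at 5.35, 4.43, 5.20 and 4.29 in input. Itpr1, the isoform abundant in neurons, stood at 8.42, 8.23, 8.45 and 7.85 in IP and at 11.13, 11.01, 10.95 and 10.96 in input. Their differences were 2.98 (SE 0.27) and -2.77 (SE 0.13), with no overlap of fractions for either gene. The neurotrophin receptor Ntrk2 was higher in IP (2.37, SE 0.11) and Ntrk3 lower (-1.77, SE 0.25). Ndrg2, a stress-response protein of astrocytes, was higher (3.66, SE 0.10), Ndrg4 (-3.22, SE 0.16) and Ndrg1 (-2.56, SE 0.38) were lower, and Ndrg3 was not called (-0.15, SE 0.19, adjusted p = 0.533). The brain creatine kinase Ckb was higher (1.42, SE 0.14) and the mitochondrial isoform Ckmt1 lower (-3.09, SE 0.43). Of the adenosine receptors, Adora2a was lower (-3.16, SE 0.30) and Adora1 lower by less (-0.58, SE 0.22, adjusted p = 0.0291), a call that was lost without Y481 or without Y482. Of 8 members of a list of purine signalling genes 3 were higher and 4 lower, against 29.3% and 24.8% over all members. The median of the list was -0.35, and without Y482 2 were lower. Adk, the kinase that clears adenosine, was among the higher ones (2.53, SE 0.33), and Gda, a guanine deaminase of neurons, among the lower (-3.40, SE 0.30).

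In other families most members lay on 1 side. Both GPM6 membrane glycoproteins were higher in IP, Gpm6b by 2.30 (SE 0.10) and Gpm6a by 1.14 (SE 0.11). Of the stathmins, which bind tubulin, Stmn2 (-1.80, SE 0.40), Stmn3 (-3.39, SE 0.36) and Stmn4 (-3.57, SE 0.42) were lower and Stmn1 was not called (-0.54, SE 0.56, adjusted p = 0.436). Of the 14-3-3 adaptor proteins 1 was higher, 4 were lower and 1 was not called. Ywhae was the higher member, at 9.65, 9.77, 9.96 and 9.70 log2 CPM in IP and at 9.05, 9.26, 9.00 and 9.17 in input (difference 0.65, SE 0.13). Ywhab, Ywhag, Ywhah and Ywhaz were lower, with Ywhah at -2.32 (SE 0.27), and Ywhaq was not called (0.14, SE 0.32, adjusted p = 0.749).

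**Figure D3:**
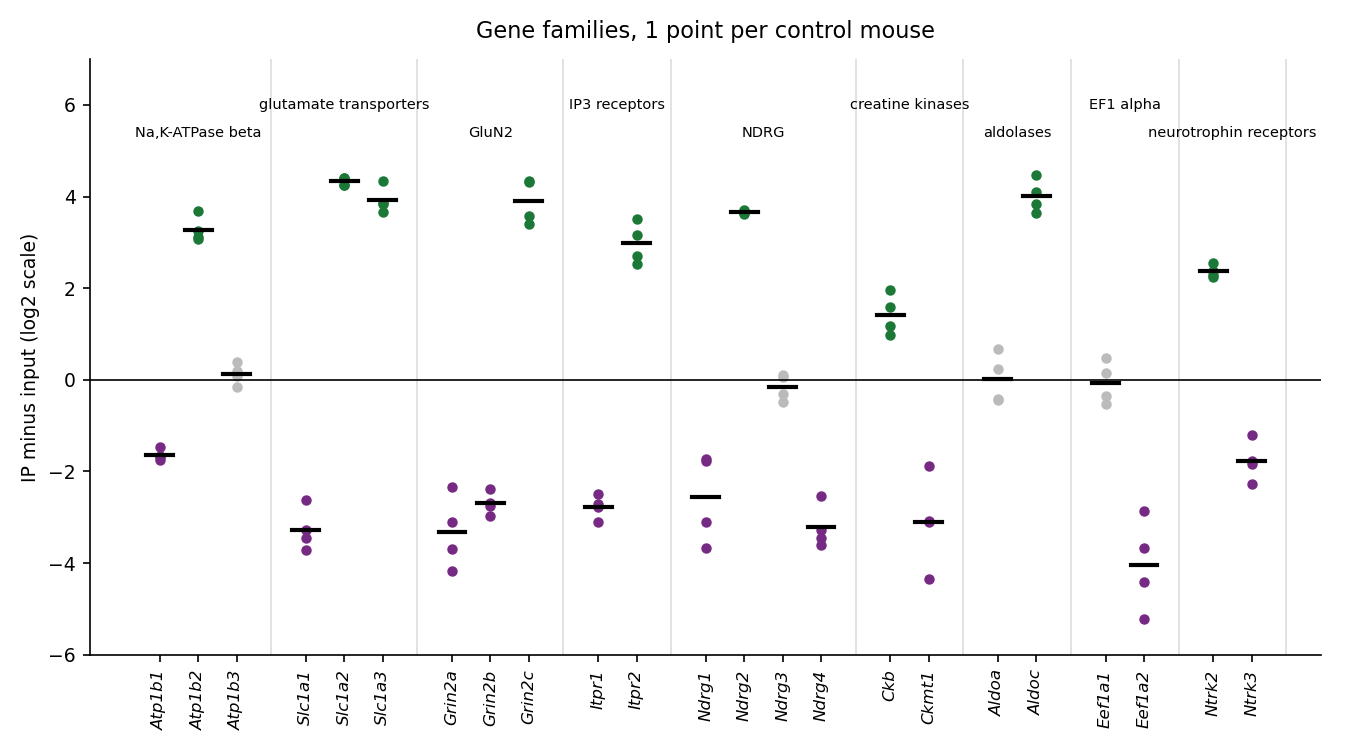
Difference of IP and input (vertical axis, log2 scale) in each of 4 control mice for members of selected gene families, 1 point per mouse and a bar at the mean; green genes were called higher in IP, purple genes lower and grey genes not called. Slc1a3 and Slc1a1, Grin2c and Grin2b, and Itpr2 and Itpr1 lie on opposite sides of 0 in every mouse.

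Genes for potassium uptake, water flow and gap junction coupling were mostly higher in IP. Of 19 members 16 were higher and 1 lower, with a median of 3.04. Kcnj10, the inward rectifier channel Kir4.1 through which astrocytes take up potassium, stood at 10.74, 10.65, 10.90 and 10.85 log2 CPM in IP and at 7.94, 7.77, 7.91 and 7.37 in input (difference 3.04, SE 0.14). Kcnj16, its partner subunit, had a difference of 3.52 (SE 0.45), with 16 input reads. The water channel Aqp4 (4.24, SE 0.17) and the membrane protein Mlc1 (4.28, SE 0.18) were also higher. The single lower member was Kcnk2, a potassium leak channel, at -0.89 (SE 0.23).

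**Figure D4:**
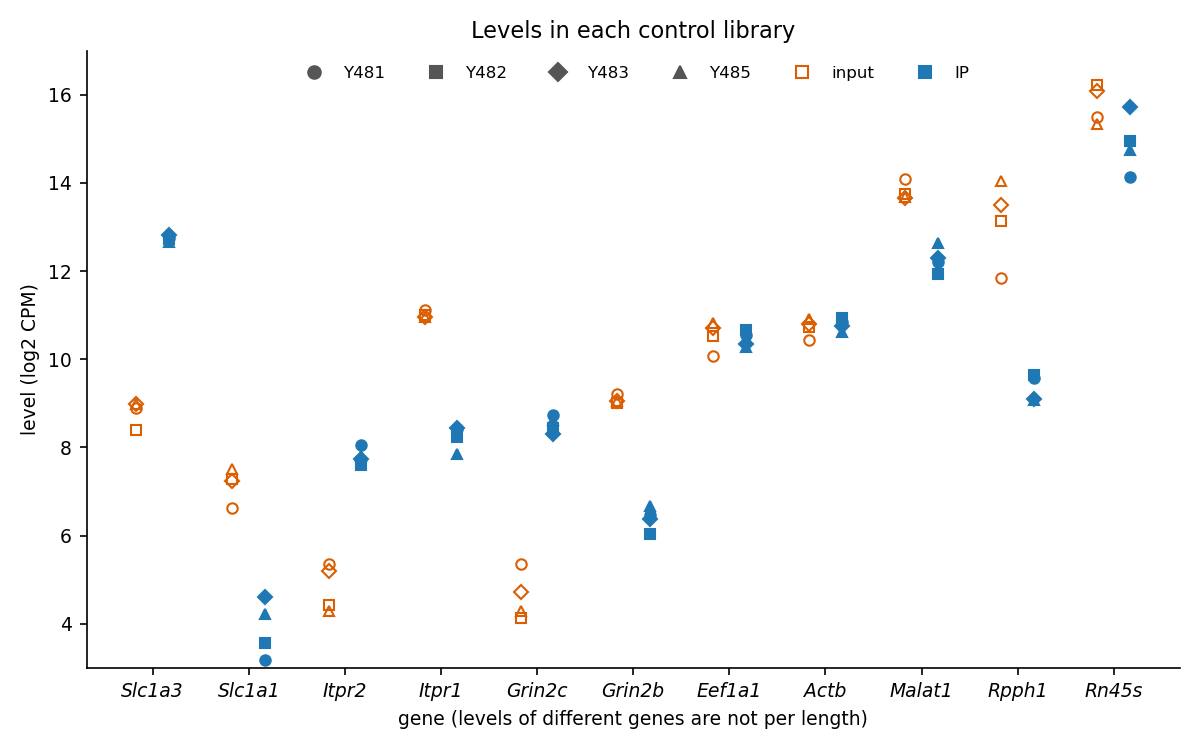
Level (log2 CPM, vertical axis) of 11 genes in each control library, with open orange symbols for input, filled blue symbols for IP and 1 symbol shape per mouse. IP and input do not overlap for Slc1a3, Slc1a1, Itpr2, Itpr1, Grin2c, Grin2b, Malat1 and Rpph1, whereas they overlap for Eef1a1, Actb and Rn45s.

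Fatty acid oxidation was the metabolic list with no member called lower and none left uncalled. The 22 members were all higher in IP, with a median of 3.13, where 29.3% of all members were called higher. With 10 reads required in all 8 libraries 3 were called. Cpt1a, which carries long-chain fatty acids into mitochondria, stood at 8.10, 7.84, 7.93 and 7.96 log2 CPM in IP and at 3.81, 4.69, 3.45 and 4.93 in input (difference 3.74, SE 0.31). Hadha, a subunit of the trifunctional enzyme of beta-oxidation, differed by 2.39 (SE 0.23). Ppara, the nuclear receptor that controls these genes, had 107 IP and 3 input reads, a ratio of 23.0 (counting interval 7.66 to 113). Acsf2, an acyl-CoA synthetase, had 164 and 5 reads, a ratio of 21.2 (8.89 to 66.0).

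Lipid synthesis was higher as well. Of 17 genes of fatty acid synthesis and elongation 14 were higher, with a median of 2.83. The desaturase Fads2 stood at 9.51, 9.63, 9.83 and 9.98 log2 CPM in IP and at 6.08, 5.99, 6.19 and 6.40 in input (difference 3.57, SE 0.17), and fatty acid synthase Fasn differed by 1.94 (SE 0.14). Acly, which makes cytosolic acetyl-CoA, was not called (0.23, SE 0.18, adjusted p = 0.3). Elovl4, an elongase of very long chains, was lower at -0.85 (SE 0.32, adjusted p = 0.031), but its call was lost whichever mouse was left out. Of 17 cholesterol synthesis genes 16 were higher (3 with 10 reads required in all 8 libraries). Their median was 2.15, and in single mice it was 2.09, 2.52, 2.07 and 2.09. Srebf2, the transcription factor that drives this pathway, differed by 1.19 (SE 0.20).

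Of 29 genes of amino acid metabolism 24 were higher, 3 lower and 2 not called, with a median of 2.42. With 10 reads required in all 8 libraries 2 were called higher and 1 lower. Gldc, the glycine decarboxylase, stood at 8.30, 8.07, 8.38 and 8.35 log2 CPM in IP and at 4.21, 4.91, 3.07 and 3.52 in input (difference 4.35, SE 0.32). Glud1, which deaminates glutamate, differed by 3.08 (SE 0.15), and Phgdh, the first enzyme of serine synthesis, by 4.10 (SE 0.43). Amt, a further subunit of the glycine cleavage system, had 170 IP and 10 input reads, a ratio of 11.0 (counting interval 5.82 to 23.3). The 3 lower members were transaminases, enzymes that move amino groups between amino acids and keto acids. Got1 stood at 5.36, 4.78, 4.95 and 5.39 in IP and at 7.29, 7.50, 7.68 and 7.80 in input (difference -2.45, SE 0.26). Got2 differed by -2.25 (SE 0.33), and Bcat1 had 12 IP and 73 input reads, 9.43-fold lower (counting interval 5.08 to 19.1).

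Glycolysis was not a uniform list. Of 16 members 10 were higher and 2 lower, against 29.3% and 24.8% over all members, with a median of 0.58. Only 6 were called higher when libraries were scaled to plain read totals. Aldoc, the aldolase of astrocytes, stood at 12.66, 12.64, 12.39 and 12.47 log2 CPM in IP and at 8.18, 8.53, 8.55 and 8.84 in input (difference 4.02, SE 0.13). Aldoa, the common aldolase, stood at 9.70, 9.84, 9.59 and 9.43 in IP and at 9.03, 9.60, 10.02 and 9.84 in input. Its fractions overlapped (difference 0.01, SE 0.16, adjusted p = 0.95), and the sign turned under plain read totals, in a count-based fit and without Y481 or Y482. Pyruvate kinase Pkm was likewise not called (-0.05, SE 0.13, adjusted p = 0.762), and the muscle-type phosphofructokinase Pfkm was higher (1.98, SE 0.17). The neuronal enolase Eno2 (-3.85, SE 0.24) and the neuronal glucose transporter Slc2a3 (-2.84, SE 0.40) were the lower members. Both glycogen phosphorylases were higher, Pygb by 3.50 (SE 0.16) and Pygm by 2.85 (SE 0.34). Ldhb (1.32, SE 0.16) and the monocarboxylate carrier Slc16a1 (1.60, SE 0.32) were higher too.

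Peroxide and metal defence genes were a mixed group. Of 17 glutathione and peroxide genes 11 were higher (4 with 10 reads required in all 8 libraries) and none lower. Their median was 1.87. Prdx6, a peroxiredoxin of astrocytes, stood at 10.15, 10.42, 10.32 and 10.01 log2 CPM in IP and at 6.49, 6.98, 6.93 and 7.35 in input (difference 3.29, SE 0.17). Gstm1, a glutathione transferase with near-identical relatives, differed by 3.76 (SE 0.19), and the microsomal transferase Mgst1 had 148 IP and 4 input reads, a ratio of 23.9 (counting interval 9.13 to 88.8). Gclc, the rate-limiting enzyme of glutathione synthesis, was not called (0.13, SE 0.24, adjusted p = 0.671). Of 11 metal handling genes 6 were higher and 2 lower, against 29.3% and 24.8% over all members, with a median of 0.93. The metallothioneins Mt1 (2.33, SE 0.16), Mt2 (2.77, SE 0.24) and Mt3 (2.91, SE 0.21) were higher. The iron storage genes were lower, Fth1 with 7.56 ± 0.20 in IP against 9.89 ± 0.23 in input (-2.33, SE 0.15) and Ftl1 by -1.04 (SE 0.30).

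Transcription factors known from glia and neural progenitors formed a list whose 29 members were all called higher, with a median of 2.57. Several entered the rule through their IP reads alone, and with 10 reads required in all 8 libraries 7 were called. Without Y482, Y483 or Y485, 26 to 27 were called. Sox9, a determinant of the glial fate, stood at 9.00, 9.16, 9.21 and 9.11 log2 CPM in IP and at 5.18, 5.41, 5.48 and 5.05 in input (difference 3.84, SE 0.20). Nfia (2.57, SE 0.19) and Nfib (3.07, SE 0.22), nuclear factors of gliogenesis, and Sox2 (2.92, SE 0.25), a progenitor factor, followed. Rorb, a nuclear receptor that is also counted with the clock, differed by 3.98 (SE 0.21). Factors with few input reads were Dbx2, with 173 IP and 6 input reads (18.6-fold, counting interval 8.37 to 51.4), and Sox21, with 146 and 8 (11.8-fold, 5.82 to 27.8).

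Receptors for growth factors and morphogens were higher in 23 of 30 cases and lower in 1. Their median was 2.35, and 13 were called higher with 10 reads required in all 8 libraries. Notch2 stood at 8.87, 8.66, 8.72 and 8.69 log2 CPM in IP and at 4.99, 4.91, 5.20 and 5.05 in input (difference 3.70, SE 0.22), and Notch1 differed by 3.47 (SE 0.22). Fgfr3, the fibroblast growth factor receptor of astrocytes, differed by 4.22 (SE 0.21), against 2.40 (SE 0.24) for Fgfr1. Egfr, the epidermal growth factor receptor, stood at 8.18 ± 0.11 in IP and 4.11 ± 1.23 in input (difference 4.07, SE 0.37), with its lowest input value in Y482. The hedgehog receptor Ptch1 (1.62, SE 0.21) and its signalling partner Smo (2.54, SE 0.37) were higher. The Wnt receptor Fzd2 had 215 IP and 10 input reads (13.9-fold, counting interval 7.40 to 29.3). Ntrk3 was the lower member.

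Genes of phagocytosis and lipid export were higher in 13 of 15 cases. Their median was 3.31, and 6 were called higher with 10 reads required in all 8 libraries. The engulfment receptors Megf10 (3.59, SE 0.26), Mertk (2.83, SE 0.26) and Axl (3.78, SE 0.22) were all higher. Apoe, the main brain apolipoprotein, stood at 12.58, 12.63, 13.03 and 13.00 log2 CPM in IP and at 9.72, 9.29, 9.58 and 9.42 in input (difference 3.31, SE 0.11). The cholesterol exporters were divided. Abca1 stood at 9.70, 9.48, 9.65 and 9.31 in IP and at 6.56, 5.26, 6.29 and 5.78 in input, and Abcg1 at 4.87, 4.21, 3.76 and 4.01 in IP and at 6.08, 6.83, 7.44 and 7.28 in input. The differences were 3.56 (SE 0.20) for Abca1 and -2.69 (SE 0.39) for Abcg1, with no overlap of fractions in either gene.

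Extracellular matrix genes were higher in 21 of 27 cases and lower in 4. Their median was 3.07, and 11 were called higher and 2 lower with 10 reads required in all 8 libraries. Sparcl1 (hevin), a secreted synapse-promoting protein, stood at 13.19, 13.31, 13.70 and 13.60 log2 CPM in IP and at 10.06, 9.79, 9.90 and 9.48 in input (difference 3.64, SE 0.12), and its relative Sparc differed by 2.90 (SE 0.15). The proteoglycans Bcan (3.76, SE 0.19) and Gpc5 (4.40, SE 0.23) were higher. Tnc, a tenascin, had 262 IP and 7 input reads (24.1-fold, counting interval 11.6 to 60.7), while its family member Tnr was lower (-1.58, SE 0.32). Thbs4, a thrombospondin, had 172 and 4 reads (27.7-fold, 10.6 to 103), and its IP levels of 5.42, 5.88, 7.30 and 6.96 log2 CPM spread more than those of Sparcl1. Reln, a secreted guidance protein of neurons, was lower (-1.95, SE 0.21). Without Y483 or without Y485, 2 of the 4 lower genes were called.

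**Figure D5:**
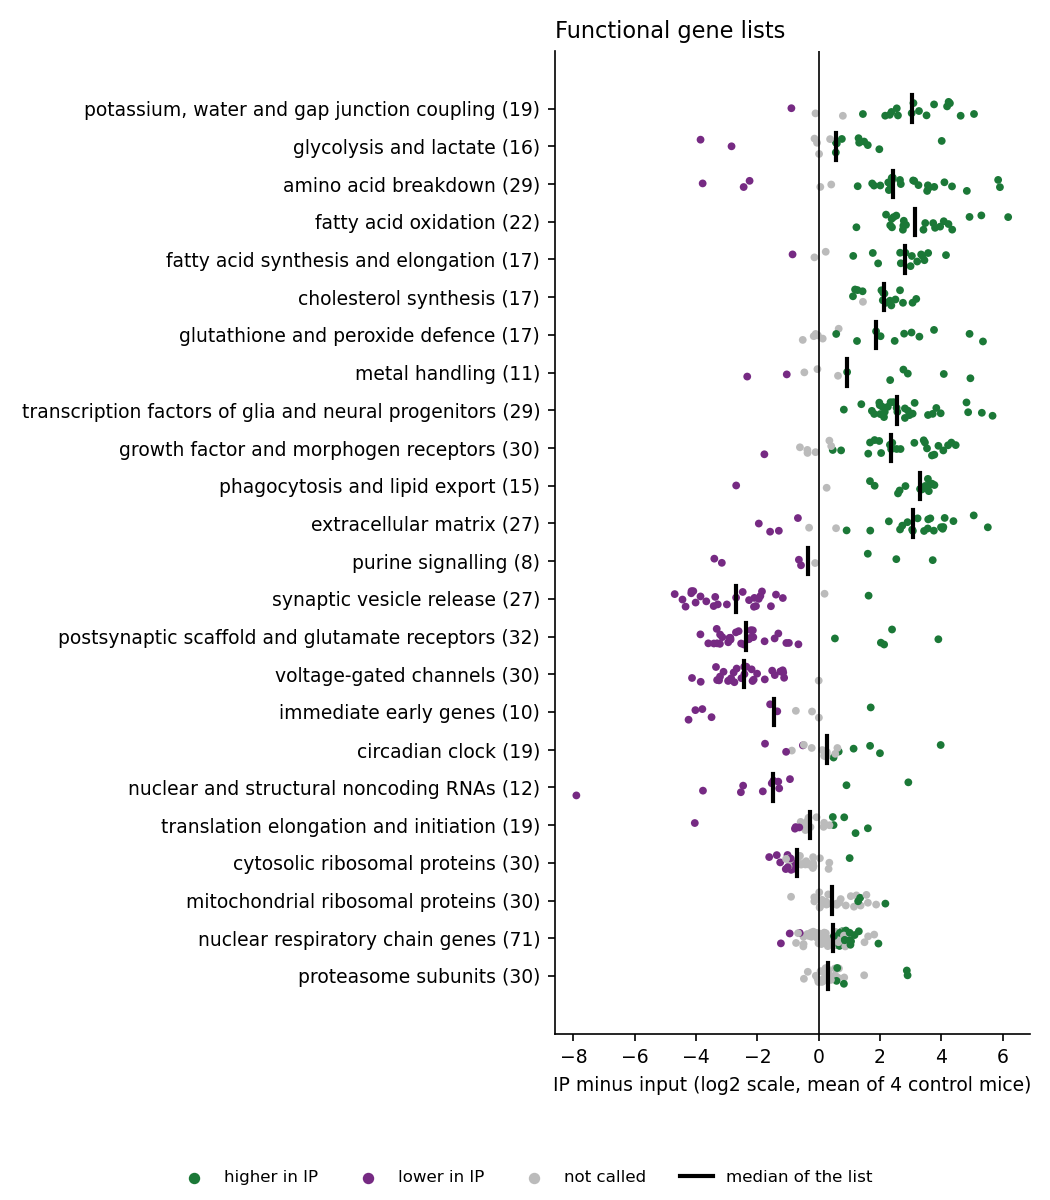
Difference of IP and input (horizontal axis, log2 scale, mean of 4 control mice) for the members of 24 functional gene lists, 1 point per gene, with the number of members in brackets and a bar at each list's median. Every member of the fatty acid oxidation and glial transcription factor lists lies to the right of 0, and the vesicle release, postsynaptic and voltage-gated channel lists lie mostly to its left.

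Genes of the presynapse were lower in 25 of 27 cases. Their median was -2.69, and 15 were called lower and 0 higher with 10 reads required in all 8 libraries. Syt4, a synaptotagmin of the vesicle release machinery, stood at 3.98, 3.56, 2.83 and 4.01 log2 CPM in IP and at 7.45, 8.24, 8.08 and 7.98 in input (difference -4.34, SE 0.34). The single higher member was Vamp3, the vesicle fusion protein found outside neurons, at 5.42, 5.98, 6.12 and 6.96 in IP and at 3.26, 4.43, 4.58 and 5.70 in input. Its ranges overlapped between fractions, but IP was higher in 4 of 4 mice (difference 1.63, SE 0.36, adjusted p = 0.00068). Syt11 was not called (0.19, SE 0.14, adjusted p = 0.256).

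Postsynaptic genes were lower in 27 of 32 cases, with a median of -2.36. Homer1, a scaffold of the postsynaptic density, stood at 6.62, 6.53, 6.54 and 6.47 log2 CPM in IP and at 9.62, 9.25, 9.32 and 9.47 in input (difference -2.87, SE 0.17). The kinase subunits Camk2a (-3.60, SE 0.20) and Camk2b (-3.86, SE 0.18) were lower. The 5 higher members were Grin2c and Grm3, given above, Grin3a (2.03, SE 0.42), Homer3 and Dlgap1. Homer3 had 52 IP and 8 input reads (difference 2.14, SE 0.86, adjusted p = 0.0412) and was called in no fit that left out a mouse. Dlgap1 differed by 0.53 (SE 0.19, adjusted p = 0.0233) and lost its call under plain read totals and without Y482, Y483 or Y485. In each of those 4 fits 3 higher members were called.

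None of 30 voltage-gated channel genes was higher and 29 were lower (18 with 10 reads required in all 8 libraries). Their median was -2.42. Scn4b, a sodium channel beta subunit rich in the striatum, stood at 6.05, 6.56, 6.29 and 6.38 log2 CPM in IP and at 9.65, 10.48, 10.34 and 10.21 in input (difference -3.85, SE 0.16). The exception was Kcna2, a potassium channel subunit, at 8.71 ± 0.16 in IP and 8.71 ± 0.04 in input (difference 0.00, SE 0.15, adjusted p = 0.992). Its sign turned under plain read totals and without Y481.

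Immediate early genes, which respond to activity within minutes, were lower in 6 of 10 cases and higher in 1. None was called in either direction with 10 reads required in all 8 libraries. Over all members 24.8% were lower and 29.3% higher. Egr1 stood at 5.17, 4.03, 4.32 and 4.98 log2 CPM in IP and at 9.10, 8.83, 8.37 and 8.30 in input (difference -4.02, SE 0.26), and Arc differed by -3.49 (SE 0.34). Jun, by contrast, stood at 6.52, 6.76, 5.93 and 6.08 in IP and at 4.99, 5.26, 3.76 and 4.48 in input (difference 1.70, SE 0.34). Egr1 and Jun thus lay on opposite sides of 0 in all 4 mice.

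Promoters were examined by the call of their genes. RefSeq promoters (GRCm38.p6, 250 bases before and 50 after each start) could be matched by symbol for 5325 members. The cAMP response element, the 8-base palindrome TGACGTCA bound by CREB, was sought on both strands, on which it reads the same. It was present in 54 of 1258 promoters of genes called lower (4.29%), 48 of 1580 of genes called higher (3.04%), 93 of 2487 of genes not called (3.74%) and 549 of 27025 genes of the table (2.03%). The promoters of 3 secretory granule genes are shown, because these 3 carry it in a similar place and lay on the low side of IP. Other granule genes are not shown. Sst encodes somatostatin, and Scg2 and Chgb encode granins, which help to form dense-core granules. Each line gives the 250 bases before the start, 5′ to 3′ on the strand of the gene, with the palindrome in capitals.
Sst: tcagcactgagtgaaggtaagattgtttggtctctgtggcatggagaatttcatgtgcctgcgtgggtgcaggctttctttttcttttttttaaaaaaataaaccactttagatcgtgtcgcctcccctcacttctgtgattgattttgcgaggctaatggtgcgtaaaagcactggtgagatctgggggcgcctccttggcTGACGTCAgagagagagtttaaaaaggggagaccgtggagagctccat
Scg2: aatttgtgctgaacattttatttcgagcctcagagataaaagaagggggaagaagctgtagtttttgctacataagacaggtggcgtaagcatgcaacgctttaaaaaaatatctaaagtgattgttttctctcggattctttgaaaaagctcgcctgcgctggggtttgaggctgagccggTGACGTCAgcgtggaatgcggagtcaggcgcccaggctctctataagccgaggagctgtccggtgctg
Chgb: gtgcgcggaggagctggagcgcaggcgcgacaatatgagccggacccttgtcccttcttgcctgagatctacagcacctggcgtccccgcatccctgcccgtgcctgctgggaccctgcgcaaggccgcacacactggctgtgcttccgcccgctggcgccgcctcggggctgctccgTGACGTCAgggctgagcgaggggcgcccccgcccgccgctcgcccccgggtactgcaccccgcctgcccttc

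These windows are chr16:23890845-23891094 on the minus strand for Sst, chr1:79440027-79440276 on the minus strand for Scg2 and chr2:132781392-132781641 on the plus strand for Chgb, and the palindrome begins 48, 68 and 72 bases before the start. Scg2 stood at 3.98, 5.10, 4.16 and 3.76 log2 CPM in IP and at 8.16, 8.10, 8.24 and 8.11 in input (difference -3.90, SE 0.29). Chgb stood at 2.88, 4.21, 4.32 and 4.01 in IP and at 8.09, 7.63, 7.86 and 7.59 in input (difference -3.94, SE 0.34). Sst had 0, 3, 0 and 0 IP reads against 26, 20, 24 and 34 input reads, 53.7-fold lower (counting interval 17.9 to 265). It entered the rule through its input reads alone, so its call supports no statement on direction. The 3 genes were picked for this display after their values were seen.

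Other features of the same windows were counted in the same way. The TATAAA box was in 9.94% of the promoters of higher genes, 9.14% of lower genes and 7% of genes not called, against 15.7% of the table. The GC box GGGCGG was in 71.3%, 74.4% and 75.4%, against 38.2% of the table, and the E-box CACGTG in 13.2%, 11.3% and 13.4%, against 8.09%. The median number of CpG dinucleotides per promoter was 22, 26 and 25 in these groups, against 8 over the table. The palindrome of nuclear factor I, TTGGC and GCCAA spaced by 5 bases, was in none of the 5325 members' windows and in 12 of the table's. These are descriptions of letters in a short window.

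Of 19 clock genes 6 were higher, 3 lower and 10 not called, against 54.1% called over all members, with a median of 0.26 that became smaller by the general shift of 0.21 under plain read totals. Clock itself stood at 6.65, 7.19, 7.11 and 7.21 log2 CPM in IP and at 7.21, 7.12, 7.54 and 7.20 in input (difference -0.23, SE 0.21, adjusted p = 0.385). The repressor Bhlhe40 (1.68, SE 0.28) and the nuclear receptor Nr1d1 (1.14, SE 0.24) were among those higher. Npas2, a Clock paralogue of the forebrain, was lower (-1.75, SE 0.28). Per2 was lower at -1.06 (SE 0.39, adjusted p = 0.0249) and lost its call without Y482 or without Y483. Without Y483, 1 clock gene was called lower, and without the mouse as a block 8 were higher and 4 lower.

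Of 12 nuclear and structural noncoding RNAs 10 were lower and 2 higher, with a median of -1.50, and over all 38 members annotated as long noncoding RNA 15 were lower, 11 higher and 12 not called. Malat1, a nuclear speckle RNA, stood at 12.22, 11.93, 12.29 and 12.63 log2 CPM in IP and at 14.08, 13.76, 13.66 and 13.69 in input (difference -1.53, SE 0.11). Rpph1, the RNA of ribonuclease P, stood at 9.58, 9.65, 9.11 and 9.07 in IP and at 11.84, 13.13, 13.49 and 14.06 in input (difference -3.77, SE 0.56). Its input values spread far more than its IP values, and the fractions did not overlap. Rmrp, the RNA of the related ribonuclease MRP, had the most negative difference of the list, at -7.91 (SE 0.20). Meg3, an imprinted RNA of neurons, was lower (-2.54, SE 0.24). The higher members were 6330403K07Rik (0.91, SE 0.22) and Pantr1 (2.93, SE 0.88, adjusted p = 0.0214). Pantr1 had 0 reads in the input of Y481 and was not called without the mouse as a block. The 45S ribosomal RNA precursor Rn45s, left after depletion, stood at 14.14, 14.95, 15.71 and 14.75 in IP and at 15.50, 16.21, 16.09 and 15.35 in input (difference -0.90, SE 0.21, adjusted p = 0.0219), and its call too was lost without the block, and also with no filter on low reads.

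Of 19 translation factors 5 were higher, 4 lower and 10 not called, with a median of -0.27. These shares lay near the 29.3% higher and 24.8% lower over all members. Eef1a2, the elongation factor of neurons and muscle, stood at 4.38, 5.43, 4.84 and 6.34 log2 CPM in IP and at 9.60, 9.10, 9.26 and 9.19 in input (difference -4.04, SE 0.29). Eef1a1, the common form, stood at 10.54, 10.67, 10.36 and 10.29 in IP and at 10.06, 10.53, 10.72 and 10.82 in input. It was not called (-0.07, SE 0.14, adjusted p = 0.715), and its sign turned without Y483 or Y485. Eif4g2, an initiation factor, was higher (1.20, SE 0.13), and Pabpc1, the poly(A)-binding protein, was lower (-0.77, SE 0.20). Of 30 cytosolic ribosomal protein genes that met the rule, out of 62 listed, 11 were lower, 1 higher and 18 not called. Over all members 24.8% were lower and 29.3% higher, and the median of the list was -0.72. Without Y485, 4 of these 30 genes were lower, and the single higher call was lost under several alternatives. Rpl22, which the RiboTag allele is known to alter, was not called (-0.41, SE 0.35, adjusted p = 0.347). Near-identical processed copies exist for many of these genes, and how such reads were counted is not given in the sources used here.

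Most mitochondrial and proteasomal genes were not called. Of 71 nuclear genes of the respiratory chain 20 were higher, 3 lower and 48 not called, with a median of 0.46 and a share of higher calls near the 29.3% over all members, and under plain read totals 11 were higher and 5 lower. Without Y485, 13 were higher and 1 lower. Sdhc, a subunit of complex II, stood at 7.17, 7.54, 6.87 and 7.13 log2 CPM in IP and at 5.18, 5.26, 5.20 and 5.27 in input (difference 1.95, SE 0.27). Of 30 mitochondrial ribosomal protein genes 3 were higher, a share below the 29.3% over all members, with a median of 0.45. Only 1 was called without Y481, Y482 or Y483. Of 30 proteasome subunits 5 were higher and none lower, shares below those over all members, with a median of 0.29. Only 3 were higher without Y482, without Y483 or under plain read totals. The largest differences among these were those of 2 subunits of the immunoproteasome, the form that serves antigen presentation. These 2 genes and Ifit3, given next, entered the rule through their IP reads alone, so their calls support no statement on direction. Psmb10 had 48, 38, 17 and 13 IP reads and 1, 3, 1 and 5 input reads, a ratio of 7.48 (counting interval 3.93 to 16.0), and Psmb8 had 42, 36, 19 and 13 IP reads and 9, 1, 8 and 0 input reads (difference 2.90, SE 0.78, adjusted p = 0.00358). The interferon-induced gene Ifit3 stood at 8.88, 8.65, 8.39 and 7.18 in IP and at 3.81, 5.26, 4.01 and 2.60 in input (difference 4.35, SE 0.30). In IP, Y485 was lowest for all 3 of these genes.

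Several abundant genes gave the same level in both fractions within narrow limits. Actb, the cytoplasmic actin, stood at 10.85, 10.93, 10.76 and 10.62 log2 CPM in IP and at 10.44, 10.74, 10.80 and 10.92 in input, with a 95% interval of the difference from -0.18 to 0.31. The elongation factor Eef2 had an interval from -0.09 to 0.41, the axonal kinesin Kif1a from -0.36 to 0.14, and Nckap1, a regulator of actin branching, from -0.49 to 0.03. Sptbn1, a spectrin of the membrane skeleton, had one from -0.07 to 0.48. Under plain read totals the signs of Actb, Eef2 and Sptbn1 turned, that of Actb also without Y481, and Kif1a and Nckap1 were called lower, so equality within these limits holds for the deposited scaling only.

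Among the genes with reads in both fractions and the largest differences, those higher in IP included Prex2, an activator of Rac (difference 4.45, SE 0.17), Aldh1a1, a retinaldehyde dehydrogenase (4.64, SE 0.26), and Vcam1, an adhesion molecule (4.35, SE 0.23). Vcam1 stood at 9.29, 8.82, 8.84 and 8.67 log2 CPM in IP and at 4.77, 4.43, 4.22 and 4.79 in input. Those lower in IP included Nrgn, a calmodulin-binding protein of dendrites (-4.90, SE 0.24), Hpca, the neuronal calcium sensor hippocalcin (-4.46, SE 0.20) and Pcp4, a calmodulin regulator (-4.67, SE 0.28). The calcineurin subunit Ppp3ca, one of the 5 genes of highest level in input, differed by -3.01 (SE 0.12). Nrgn stood at 4.60, 4.78, 3.76 and 4.01 in IP and at 9.39, 9.10, 9.03 and 9.23 in input, without overlap.

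Some calls rested on the shallow input library of Y481. M6pr, a sorting receptor for lysosomal enzymes, stood at 7.22, 7.05, 7.16 and 7.05 log2 CPM in IP and at 4.52, 6.78, 6.46 and 6.84 in input. It was called higher (0.97, SE 0.34, adjusted p = 0.0231), but not without Y481, under plain read totals or without the mouse as a block. Pcyox1, a lysosomal oxidase, had a similar input pattern of 4.21, 6.78, 6.29 and 6.31 and kept its call in each of the 11 alternative fits (adjusted p = 0.000776).

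The enrichment of the control mice was set against that of the 4 PMCA mice in a model of all 16 libraries, to ask which differences between IP and input depended on the treatment. Among genes called in control mice 98.8% had the same sign in PMCA mice, and 3149 were called there in the same direction. The difference itself was called for 3 of 6975 genes (0.043%), each larger in PMCA mice, while 386 had an unadjusted p under 0.05. On simulated data this comparison recovered 16.4% of 67 genes changed 2-fold and 76.1% of 67 changed 4-fold. Genes not called may therefore still differ between treatments. Atp2b2, the mouse gene of the pump that the virus encodes, was lower in control IP (-2.74, SE 0.14) and differed between treatments by 2.11 (SE 0.20), with -0.63 in PMCA mice. Reads from the human transgene can match the mouse gene, and their part in this value was not tested. For Peg3, an imprinted zinc finger gene, the difference between treatments was 1.56 (SE 0.27, adjusted p = 0.0152), from -1.09 in control to 0.47 in PMCA mice. For 9430020K01Rik it was 2.30 (SE 0.24), from -2.45 to -0.15. Without Y483, Y487, Y489 or Y490, 2 genes were called larger in PMCA mice, and without Y482 1 gene was called smaller.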

How the data were processed

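Per the labels, striatal RNA of each mouse was sequenced before (input) and after (IP) precipitation of tagged ribosomes, from ribosomal RNA-depleted, strand-specific libraries. The deposited values are log2 CPM per gene made by the authors; the submitters' processing notes name mm10, STAR, HTSeq, edgeR and limma, without versions. How strand and multiply matching reads were handled is not given in the sources used here.

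Low values are whole multiples of 1 read, so reads were recovered from each log2 value with a prior of 0.25 reads. Over all 16 libraries 100% of values lay within 0.01 reads of a whole number. Genes with 10 reads in 4 of the 8 control libraries were kept (6975). The deposited log2 values were tested with limma 3.58.1 in R 4.3.3 (trended, robust with statmod 1.5.0), with mouse as a block, because the labels give both libraries of a pair the same mouse. Deviations of same-mouse libraries from their group means correlated between -0.02 and 0.04. Treatments were compared by an interaction term over 16 libraries. Counting intervals of read ratios (95%) are exact, compare reads per effective library size as deposited, and cover counting error only. Tables and plots used Python 3.11.15 with scipy 1.17.1 and matplotlib 3.10.9.

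The members and gene lists were chosen with earlier results of these data known. Named genes are the 12 with the largest difference in each direction, the 3 largest per list, all tested family members, the 5 highest in each fraction, the 8 most abundant near-equal genes, the 5 with the widest spread between mice, the 5 of smallest p between treatments, and genes at the edge of the rule. Others, such as Aldh1l1, Gfap, Drd1a, Cpt1a, Apoe and Clock, were named after their values were seen. Rows with a spreadsheet date for a symbol (21) were left unnamed, and some genes are not reported here.

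Alternatives were a fit without the block, voom on recovered reads, plain read totals, median-of-ratios scaling, a prior of 2 reads, no filter, 10 reads in all 8 libraries, no robust moderation, a 2-fold minimum and leaving out each mouse. On data simulated for the comparison of IP and input (6975 genes), 43.3% of 67 genes changed 2-fold, 95.5% of 67 changed 4-fold and 100% of 66 changed 16-fold were recovered, with 9 of 6775 unchanged genes called. For the comparison of treatments the shares recovered were 16.4%, 76.1% and 100%, with 1 of 6775 unchanged genes called. The simulations changed few genes, gave all genes the same spread between libraries and held no differences between mice. In the data 54.1% of genes were called between IP and input, so these rates need not hold for the real comparisons.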

Additional observations from a re-analysis of the deposited data

Results flagged for a closer look

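Among 386 groups of 4 libraries or mice examined, 21 had a lowest or highest value that stood apart from the others by Dixon's criterion, and chance marks about 1 in 20 groups. In input, Y481 stood apart with higher levels of Hpca (10.85 log2 CPM) and Meg3 (11.68), and with lower levels of Ndrg4 (9.93), Gpm6b (10.23), Ywhaz (9.03), Adk (3.81), Stmn1 (3.26), M6pr (4.52) and Pantr1 (-0.66, which is 0 reads). In IP, Y481 stood apart with lower Pygb (10.13), Mt2 (7.46) and Clock (6.65) and higher Kcna2 (8.95). Y482 stood apart in input with lower Slc2a1 (4.69), Ntrk3 (6.47), Slc1a3 (8.39) and Egfr (2.27), and in IP with Sst (2.88), which had 0 reads in the other IP libraries. Its median difference over the cholesterol synthesis genes was 2.52, against 2.07 to 2.09 in the other mice. Y483 stood apart in input with higher Sox2 (5.56) and Sptbn1 (9.69), the latter within a narrow range.

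For 3 genes the difference of IP and input itself differed between PMCA and control mice, by the interaction term in limma: 9430020K01Rik by 2.30, Atp2b2 by 2.11 and Peg3 by 1.56.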

How the results depend on the processing

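Across the alternatives run on all genes, the counts of genes higher and lower in IP stayed within 1.5 times 2042 and 1728, except when 10 reads were required in all 8 libraries, which leaves fewer genes to test and gave 740 higher and 1056 lower. Of 816 counts of called list members under the alternatives, 78 lay over 1.5 times away, 35 of them with that requirement. Leaving out 1 mouse gave 1750 to 1902 higher and 1495 to 1757 lower. Without the mouse as a replicate block the counts were 2022 and 1748. Plain read totals moved the median difference by -0.21 and gave 1736 higher and 2074 lower, so that 45.6% of calls were higher in place of 54.2%. Between treatments, leaving out 1 mouse gave 2 to 3 genes larger in PMCA mice and 0 to 1 smaller. Of 250 named genes 229 were called, 203 of them under every alternative run for them, and no called gene reversed. In 3 cases a call was gained, by Kif1a and Nckap1 under plain read totals and Arntl without Y485. A prior of 2 reads moved the difference of 48 named genes by over 1.5-fold, 32 of which had at most 12 reads in a fraction. Input depth limits the precision of such genes.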

Other observations

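Genes that the report does not describe showed large differences with uneven input. Oplah, the 5-oxoprolinase of the glutathione cycle, had 341 IP and 10 input reads (ratio 22.0, counting interval 11.8 to 46.3), and Aass, the first enzyme of lysine breakdown, had 145 and 4 (ratio 23.4, 8.94 to 87.0). Gjb6, the gap junction protein connexin 30, stood at 7.58, 7.84, 8.03 and 8.05 log2 CPM in IP and at -0.66, 3.17, 4.22 and 4.48 in input in the order Y481, Y482, Y483, Y485. Penk, the enkephalin precursor of indirect pathway neurons, was highest in the input of Y481 (11.68 against 10.60 to 10.84) and lowest in its IP (5.73 against 6.26 to 6.55). These genes were chosen after their values were seen.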
